A study of Mus musculus with 31 samples.

Results

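The monocyte-attracting CC chemokines examined here are Ccl2, Ccl3, Ccl4, Ccl6, Ccl7, Ccl8, Ccl9, Ccl12 and Ccl24, 9 of the 24421 genes in the deposited count files. They were taken by gene symbol, all 9 were found in all 31 files, and all 9 passed the filter on low counts. The libraries are RNA-seq of 4 cell populations sorted from hearts of mice of the Balb/c strain, 8 to 12 weeks old: conventional dendritic cells of the cDC1 and cDC2 types, CD11c-positive monocyte-derived cells (labelled moDCs) and CD11c-negative monocyte-derived cells (labelled macrophages). The 4 MI groups came from hearts infarcted by permanently tying off the left anterior descending coronary artery, and the 4 SS groups from hearts in the steady state. MI cDC2s have 3 libraries and each other group has 4. The sources used here give neither the time after ligation nor the sex of the mice, the sorting antibodies or any sham operation. The design text calls the replicates independent without saying whether each is 1 heart or a pool, and the p-values measure only how these samples spread. MI and SS hearts also differ in whatever else separated their preparation, which cannot be told apart from infarction.

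CC chemokines are small secreted proteins that bind G protein-coupled receptors on leukocytes and set up the gradients along which these cells leave the blood. CCL2, CCL7 and CCL12 act through CCR2, the receptor that monocytes use to leave the bone marrow and enter injured tissue. CCL3, CCL6 and CCL9 act on CCR1, mouse CCL8 on CCR8, and CCL24 (eotaxin-2) on CCR3 of eosinophils. In the infarcted heart, macrophages are known as a source of several of these proteins, and CCR2-dependent monocytes replace part of the resident macrophage pool.

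Libraries held 9148624 to 16531349 reads in genes. Values are given as CPM, the usual depth-scaled read counts, after TMM normalization, and "adjusted p" is from edgeR's quasi-likelihood test with Benjamini-Hochberg adjustment over the 13039 genes tested, called below 0.05. Marker genes matched the cDC1 and CD11c labels. Summed cDC1 markers (Xcr1, Clec9a and 5 others) came to 8228 to 9065 CPM in MI cDC1s and 7103 to 8139 CPM in SS cDC1s. In the other libraries they came to 494 to 858 CPM. Summed cDC2 markers (5 genes) came to 3681 to 5132 CPM in cDC2 libraries and 1582 to 2756 CPM in macrophage and moDC libraries. Summed macrophage markers (9 genes) overlapped between SS cDC2s (18642 to 31616 CPM) and moDCs (20743 to 26573.5 CPM in MI, 29372 to 39424 CPM in SS). Itgax, which encodes CD11c, averaged 471 ± 62.9 CPM in MI moDCs and 40.9 ± 15.8 CPM in MI macrophages, and 337 ± 93.5 CPM in SS moDCs and 7.5 ± 2.91 CPM in SS macrophages (SD, n = 4 each). Reads outside annotated features made up 11.6% to 16.9% in SS libraries 1 and 4 and 6.42% to 9.26% in SS libraries 2 and 3. Where a chemokine's call, or its called fold by more than 1.5 times, changed against 1 pair alone, that pair is given. Heat shock genes of a 14-gene list of dissociation stress were lower in MI libraries of all 4 cell types (Hspa1a, Hspa1b, Dnajb1 and Hspb1 fell in each). Of that list 1 gene rose and 4 fell in macrophages (beside 7.39% of all genes called), 0 rose and 5 fell in moDCs (beside 4.84%), 0 rose and 4 fell in cDC2s (beside 11.0%), and 1 rose and 6 fell in cDC1s (beside 8.88%). Its summed level was 14491 to 21283 CPM in MI macrophages and 14017 to 30271 CPM in SS macrophages, 11540.5 to 13312 CPM in MI moDCs and 14267 to 24925 CPM in SS moDCs, 15671 to 17562 CPM in MI cDC2s and 15847 to 24691 CPM in SS cDC2s, and 10239 to 11309 CPM in MI cDC1s and 10018 to 16574 CPM in SS cDC1s, and no gene of the list was at 0 in all libraries of a group. Their part in the chemokine results was not tested.

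On the GRCm38 assembly with GENCODE M21, 8 of the 9 genes lie on chromosome 11. Ccl2 (chr11:82035571-82037453), Ccl7 (chr11:82045712-82047525), Ccl12 (chr11:82101845-82103400) and Ccl8 (chr11:82115185-82116799) lie in this order on the plus strand, with Ccl11 between Ccl7 and Ccl12. Further along are Ccl9 (chr11:83572919-83578636), Ccl6 (chr11:83587882-83593087) and Ccl3 (chr11:83647844-83649355) on the minus strand and Ccl4 (chr11:83662584-83664683) on the plus strand. Ccl24 lies at chr5:135569937-135573049 on the minus strand. All are protein-coding. No stretch of 75 bases, the read length, in a member's transcripts occurs in a transcript of another gene, and no exon of another gene overlaps theirs.

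Promoter sequences were available for 5 of the 9 genes: Ccl3, Ccl6, Ccl8, Ccl9 and Ccl12. Among these, the promoters of 2 neighbouring pairs whose transcripts had similar profiles over the libraries are shown. The sequences are the 250 bases before the start of each gene in RefSeq on GRCm38.p6, 5′ to 3′ on the gene's strand, at chr11:82114935-82115184 (plus) for Ccl8, chr11:82101595-82101844 (plus) for Ccl12, chr11:83593088-83593337 (minus) for Ccl6 and chr11:83578637-83578886 (minus) for Ccl9. Capitals mark matches on either strand to 5 motifs: TATAAA, the PU.1 core GAGGAA, a C/EBP pattern TTNNGNAA, the AP-1 pattern TGANTCA and the NF-kB consensus.
Ccl8: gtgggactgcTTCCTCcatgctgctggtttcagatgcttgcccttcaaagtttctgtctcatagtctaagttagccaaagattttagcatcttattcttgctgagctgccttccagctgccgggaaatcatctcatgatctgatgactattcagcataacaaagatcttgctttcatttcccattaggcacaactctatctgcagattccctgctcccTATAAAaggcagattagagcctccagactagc
Ccl12: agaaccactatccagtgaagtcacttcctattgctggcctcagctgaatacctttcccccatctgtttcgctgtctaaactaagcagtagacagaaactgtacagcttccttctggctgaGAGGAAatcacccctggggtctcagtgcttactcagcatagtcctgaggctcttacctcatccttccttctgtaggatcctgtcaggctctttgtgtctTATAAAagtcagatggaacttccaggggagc
Ccl6: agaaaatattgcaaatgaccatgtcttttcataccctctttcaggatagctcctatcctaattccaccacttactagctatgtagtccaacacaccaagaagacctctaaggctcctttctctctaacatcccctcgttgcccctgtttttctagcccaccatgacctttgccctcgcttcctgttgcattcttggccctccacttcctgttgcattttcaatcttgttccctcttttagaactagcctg
Ccl9: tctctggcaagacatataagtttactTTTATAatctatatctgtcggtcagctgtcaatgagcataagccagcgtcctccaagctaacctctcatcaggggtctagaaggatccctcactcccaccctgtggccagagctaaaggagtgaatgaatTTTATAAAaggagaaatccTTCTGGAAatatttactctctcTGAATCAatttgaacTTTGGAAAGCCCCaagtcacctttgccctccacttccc
Ccl8 and Ccl12 each hold TATAAA on the gene's own strand, at 32 to 27 and 31 to 26 bases before the start, and 1 match to GAGGAA. Ccl9 holds 1 NF-kB match, 2 C/EBP matches, 1 AP-1 match, which reads on both strands, and 3 TATAAA matches. Of the TATAAA matches 2 overlap each other, and the NF-kB match overlaps a C/EBP match. None of the 5 patterns occurs in the 250 bases of Ccl6. Of 32851 promoters of this length, 12.4% hold TATAAA, 23.3% the PU.1 core, 36.8% the C/EBP pattern, 6.75% the AP-1 pattern and 7.25% the NF-kB consensus. Aligned end to end, the promoters of Ccl8 and Ccl12 shared 57.5% of aligned positions and those of Ccl6 and Ccl9 50%. The other pairs among the promoters available shared 48.1% to 54.2%. Such matches describe letters and do not show binding.

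Compared per kilobase of exon, Ccl4 or Ccl6 had the highest level of the 9 genes in every group. In macrophages Ccl4 stood at 996 CPM per kilobase in MI and 647 in SS, with Ccl6 next at 661 in MI and 598 in SS. With the longest transcript as length, Ccl6 came before Ccl4 in SS macrophages. Ccl8 was the third highest in MI macrophages, at 489 CPM per kilobase, and the lowest of the 9 in SS macrophages, at 72.4. In cDC2s the top level was that of Ccl4 in MI (566) and that of Ccl6 in SS (1754). In cDC1s Ccl4 alone made up 75% of the summed level of the 9 genes in MI and 60.5% in SS. Ccl24 stood in the last place in MI macrophages, at 52.4 CPM per kilobase, against 193 and the fifth place in SS macrophages.

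**Figure D1:**
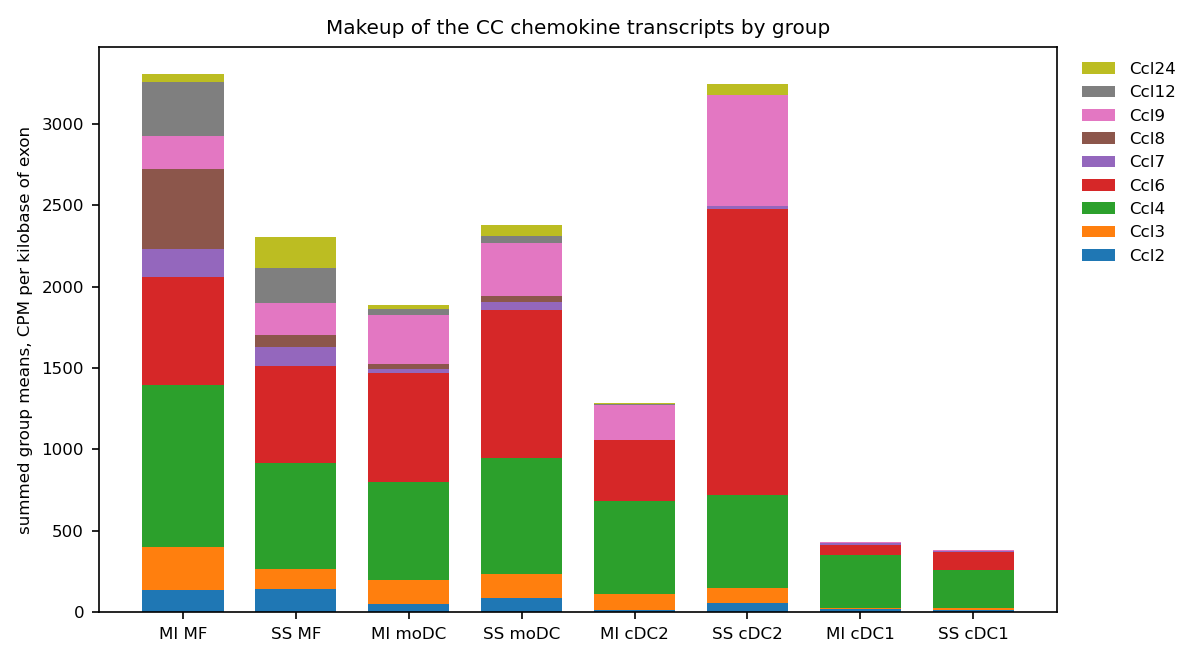
Summed group means of the 9 chemokines in CPM per kilobase of exon (vertical axis), with 1 bar for each group of sorted cells and 1 colour for each gene, MI beside SS for each cell type. The sum came to 3305 in MI macrophages and 2305 in SS macrophages, and to 1283 in MI cDC2s and 3241 in SS cDC2s, where Ccl6 and Ccl9 form most of the difference.

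As a share of all reads in genes, the 9 chemokines took 0.281 to 0.44% in MI macrophages and 0.254 to 0.364% in SS macrophages, and 0.255 to 0.299% in MI moDCs and 0.288 to 0.444% in SS moDCs. The share was 0.17 to 0.205% in MI cDC2s and 0.436 to 0.641% in SS cDC2s, with no overlap between the groups. In every cDC1 library it was lower than in any other, at 0.0334 to 0.043% in MI cDC1s and 0.0349 to 0.047% in SS cDC1s. In bulk samples such as these, fewer cells of a kind and less RNA per cell cannot be told apart.

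Of the 9 genes, 3 changed between MI and SS in macrophages (Ccl3 and Ccl8 up, Ccl24 down), where 7.39% of all genes tested were called. In moDCs 1 of 9 changed (Ccl2 down), beside 4.84% of all genes. In cDC2s 5 of 9 changed, all downward (Ccl2, Ccl6, Ccl7, Ccl9 and Ccl24), beside 11.0% of all genes. In cDC1s 3 of 9 changed (Ccl7 up, Ccl6 and Ccl9 down), beside 8.88% of all genes. The median log2 fold change of the 9 genes was 0.54 in macrophages, -0.45 in moDCs, -1.67 in cDC2s and 0.48 in cDC1s, while that of all genes tested was -0.03 in each cell type. Ccl7 was called in opposite directions: it rose in MI cDC1s and fell in MI cDC2s.

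**Figure D2:**
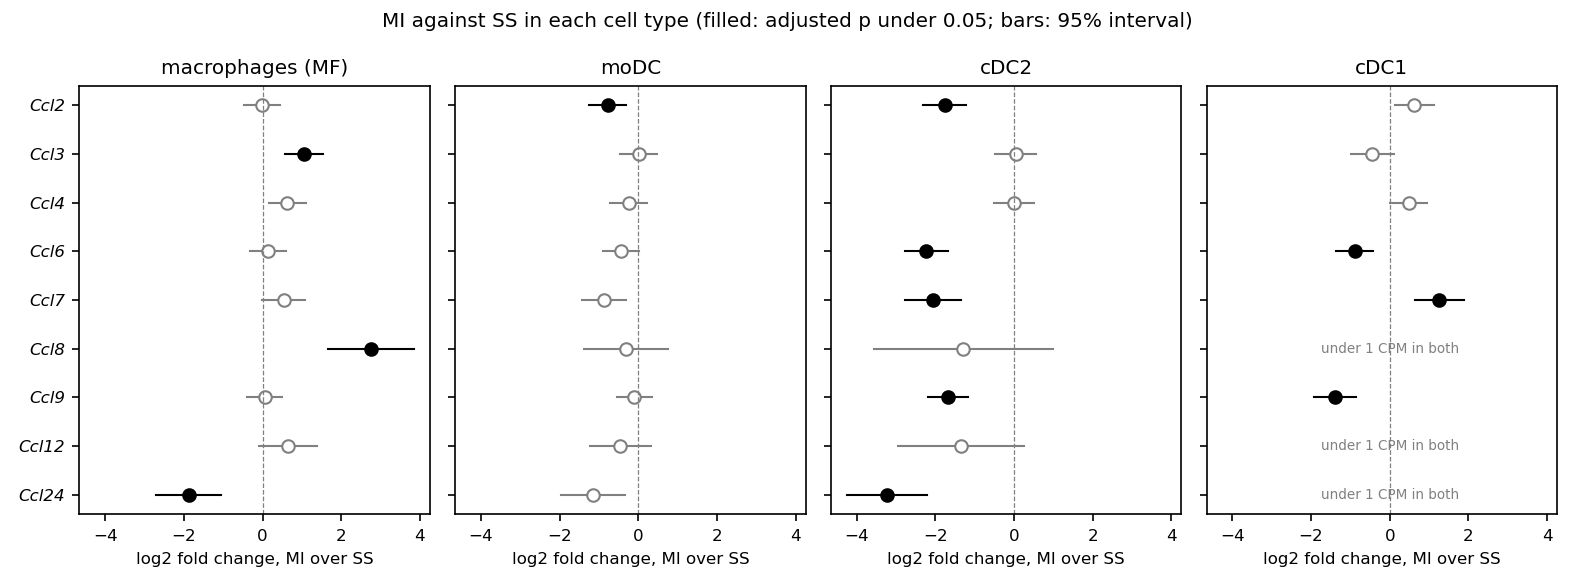
Log2 fold change of MI over SS (horizontal axis) for each chemokine in each of the 4 cell types, with 95% intervals. Filled points have an adjusted p under 0.05: 3 in macrophages, 1 in moDCs, 5 in cDC2s and 3 in cDC1s. Genes whose group means were both under 1 CPM carry no point.

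A test of whether the MI effect differed among the 4 cell types called 6 of the 9 genes, beside 6.80% of all genes: Ccl7 (adjusted p = 1.99e-05), Ccl2 (0.000162), Ccl6 (0.000167), Ccl9 (0.000675), Ccl8 (0.0198) and Ccl3 (0.028). The call of Ccl8 was lost in DESeq2 (adjusted p = 0.159). That of Ccl3 was lost without MI macrophage library 3 (0.0755) or 4 (0.0791), SS macrophage library 3 (0.0813) or 4 (0.0629), or MI cDC1 library 3 (0.0545). The comparisons with macrophages that follow share the macrophage libraries. Set against the MI effect in macrophages, the effect in cDC2s was lower for 4 of 9 genes, beside 4.49% of all genes. These were Ccl2 (difference of log2 fold changes -1.75, adjusted p = 0.00194), Ccl6 (-2.37, 4.37e-05), Ccl7 (-2.59, 0.000253) and Ccl9 (-1.72, 0.00145). That of Ccl8 (-4.04) missed the threshold (0.0514), with 13 reads in all MI cDC2s and 40 in all SS cDC2s. It passed with DESeq2's size factors in edgeR (0.0484) and without MI macrophage library 1, SS macrophage library 2, MI cDC2 library 3 or SS cDC2 library 1, 2 or 4 (0.0197 to 0.049). It was -6.88 without MI cDC2 library 3 and -1.48 (adjusted p = 0.772) without SS cDC2 library 3. The effect in cDC1s was lower than in macrophages for 2 of 9, Ccl3 (-1.49, adjusted p = 0.0115) and Ccl9 (-1.44, 0.0121), beside 4.04% of all genes. That of Ccl6 (-1.04, adjusted p = 0.0659) passed in DESeq2 (0.014) and without SS macrophage library 2 (0.0309). Between moDCs and macrophages the difference was called for 0 of 9 by edgeR without a block on the replicate number, beside 0.291% of all genes. There Ccl8 had the lowest adjusted p (difference -3.06 ± 0.73 SE, 0.0792), and both Ccl8 (0.0331) and Ccl7 (0.038) passed without SS macrophage library 2, as Ccl7 did in DESeq2 (0.0439). In that comparison DESeq2 called Ccl7 alone among the 9 genes. With a block on the replicate number, edgeR called Ccl7 (adjusted p = 0.013) and Ccl8 (0.0371) there. Calls that this block added in cDC2s and cDC1s are given below, with the dependence on processing.

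Between cell types, most of the 9 genes differed in most comparisons, as did a large share of all genes. In MI hearts, moDCs differed from macrophages in 6 of 9 (beside 10.8% of all genes), cDC2s from macrophages in 8 (beside 26.4%), cDC1s from macrophages in 9 (beside 45.4%) and cDC2s from moDCs in 6 (beside 10.1%). Also in MI, cDC1s differed from moDCs in 9 (beside 36.0%) and from cDC2s in 6 (beside 26.8%). In SS hearts the counts were 5 for moDCs against macrophages (beside 12.9%), 7 for cDC2s against macrophages (beside 35.2%), 9 for cDC1s against macrophages (beside 42.8%) and 5 for cDC2s against moDCs (beside 15.4%). For cDC1s in SS they were 9 against moDCs (beside 33.3%) and 8 against cDC2s (beside 28.2%). All 9 genes were lower in cDC1s than in macrophages and in moDCs, in both states. The genes called higher in moDCs or cDC2s than in macrophages were Ccl6 and Ccl9 in SS cDC2s and Ccl9 in SS moDCs.

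**Figure D3:**
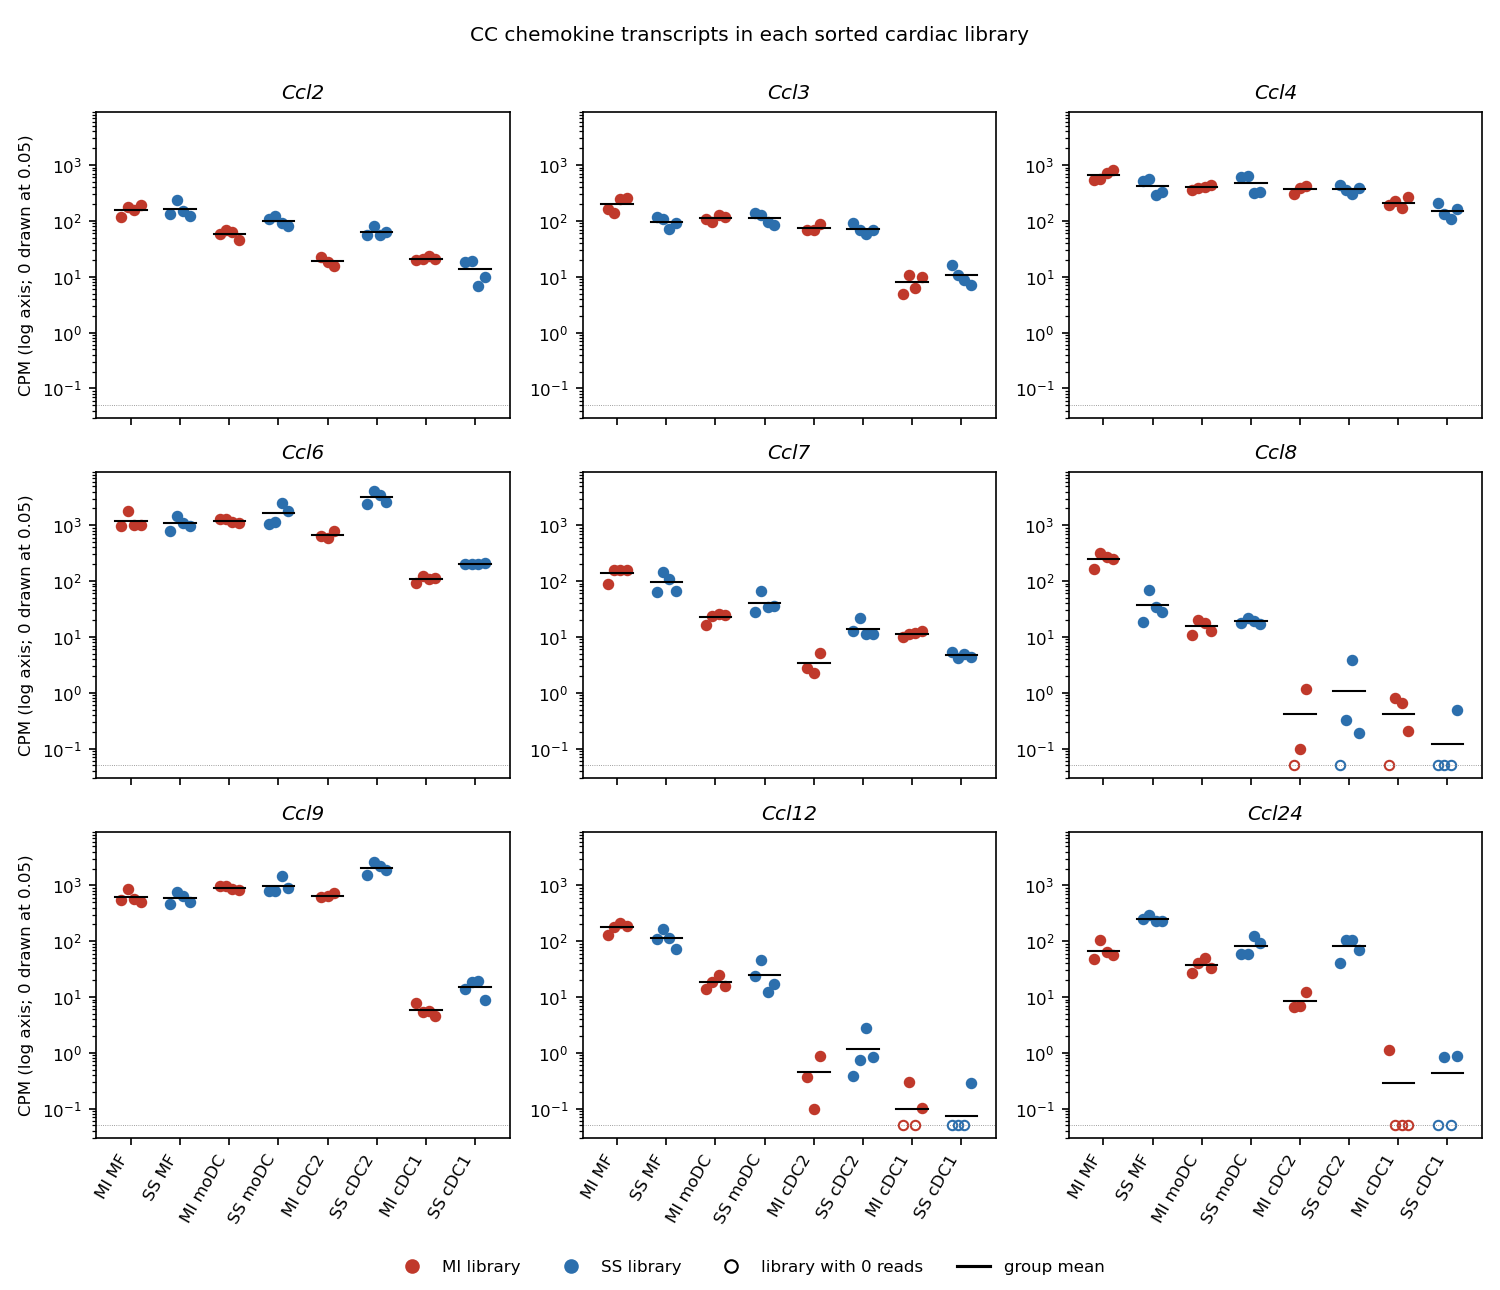
CPM of each chemokine in each of the 31 libraries (log axis, with libraries without a read drawn as open points at 0.05), MI beside SS for each cell type, with the group mean as a line. Ccl8, Ccl12 and Ccl24 reach 0 in cDC1 libraries, whereas Ccl4 stays between 108 and 812 CPM in all 31.

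Among the CCR2 ligands, Ccl2, the best known monocyte attractant, had its highest means in macrophages. It had 115, 175, 158 and 190.5 CPM in MI macrophages, against 135, 235, 153 and 124 CPM in SS macrophages. These groups overlap and the difference did not pass (log2 fold change -0.02 ± 0.23 (SE), adjusted p = 0.991). Ccl2 had 58.8, 69.0, 62.9 and 44.7 CPM in MI moDCs, against 107, 123, 92.2 and 81.5 CPM in SS moDCs. Every MI value lies below every SS value, and Ccl2 fell 1.72-fold (log2 fold change -0.78 ± 0.23 (SE), adjusted p = 0.0454). That call was lost against SS libraries 1 and 4 alone (adjusted p = 0.0709), against 2 and 3 alone (0.0559), with no filter on low counts (0.065), and without any 1 of the 4 MI libraries or without SS library 1 or 2 (0.0646 to 0.157). Ccl2 had 23.0, 18.4 and 15.6 CPM in MI cDC2s, against 57.1, 81.7, 55.5 and 64.1 CPM in SS cDC2s. The groups are far apart, and Ccl2 fell 3.4-fold (log2 fold change -1.76 ± 0.27 (SE), adjusted p = 2.67e-05). Ccl2 had 19.6, 21.0, 23.4 and 20.5 CPM in MI cDC1s, against 18.5, 19.1, 6.85 and 9.94 CPM in SS cDC1s. All 4 MI values are above the SS values, but the difference did not pass (log2 fold change 0.62 ± 0.24 (SE), adjusted p = 0.115). It passed without SS library 2 (0.0464).

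Across cell types, Ccl2 was lower in cDC2s than in macrophages in both states (log2 -3.07, adjusted p = 4.72e-10 in MI; log2 -1.32, adjusted p = 3.49e-05 in SS). It was lower in moDCs than in macrophages in MI (log2 -1.44, adjusted p = 5.11e-05). In SS it was lower in moDCs too (log2 -0.68, adjusted p = 0.0468), a call lost without SS macrophage library 2 (0.22) or 3 (0.0583), or SS moDC library 1 (0.0641), 3 (0.122) or 4 (0.139). cDC1s were below cDC2s in SS (log2 -2.24, adjusted p = 1.12e-08), while in MI the mean levels were 21.1 ± 1.61 CPM in cDC1s and 19.0 ± 3.71 CPM in cDC2s (SD, n = 4 and 3) and the difference did not pass (log2 0.15, adjusted p = 0.741, 95% interval -0.38 to 0.69).

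Ccl7 encodes a second CCR2 ligand and lies next to Ccl2. Ccl7 had 87.9, 156, 155 and 157 CPM in MI macrophages, against 64.7, 144, 107 and 66.5 CPM in SS macrophages. The groups overlap, with 1 MI library below the others, and the difference did not pass (log2 fold change 0.54 ± 0.27 (SE), adjusted p = 0.255). Against SS libraries 1 and 4 alone it did (2.09-fold higher in MI, adjusted p = 0.00954). Over all alternatives run, the log2 fold change of Ccl7 in macrophages lay between 0.14 and 1.06. Ccl7 had 16.1, 23.4, 25.4 and 24.7 CPM in MI moDCs, against 27.6, 66.5, 34.0 and 35.1 CPM in SS moDCs. These values do not overlap, but the difference did not pass (log2 fold change -0.87 ± 0.27 (SE), adjusted p = 0.0622). It passed with upper-quartile scaling (0.0471), in DESeq2 (0.0325), against SS libraries 2 and 3 alone (0.0153) and without SS library 1 (0.0357). Ccl7 had 2.73, 2.28 and 5.11 CPM in MI cDC2s, against 12.7, 21.4, 11.2 and 11.1 CPM in SS cDC2s. All MI values are lower, and Ccl7 fell 4.16-fold (log2 fold change -2.06 ± 0.35 (SE), adjusted p = 0.000104).

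In cDC1s the direction of Ccl7 was the opposite. It had 9.98, 11.0, 12.0 and 12.6 CPM in MI cDC1s, against 5.47, 4.17, 4.86 and 4.39 CPM in SS cDC1s. Every MI library is above every SS library, and Ccl7 rose 2.4-fold (log2 fold change 1.26 ± 0.30 (SE), adjusted p = 0.006). cDC1s exceeded cDC2s in MI (3.37-fold, log2 1.75, adjusted p = 0.000181) and stood below them in SS (log2 -1.57, adjusted p = 0.00012). This is the only call among the 9 genes with cDC1s above another cell type in either state. Both dendritic levels remained far under the 139 ± 33.9 CPM of MI macrophages.

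Ccl12, a mouse CCR2 ligand, was largely a macrophage transcript. Ccl12 had 130.4, 181, 212 and 185 CPM in MI macrophages, against 108, 162, 112 and 71.6 CPM in SS macrophages. The groups overlap and the difference did not pass (log2 fold change 0.64 ± 0.36 (SE), adjusted p = 0.334). In moDCs the values were lower, with 13.8, 18.6, 24.8 and 15.8 CPM in MI moDCs, against 23.8, 46.4, 12.5 and 16.8 CPM in SS moDCs. They overlap too (log2 fold change -0.46 ± 0.37 (SE), adjusted p = 0.592). In moDCs Ccl12 stood 9.69-fold below macrophages in MI (log2 -3.28, adjusted p = 1.01e-06) and 4.53-fold below in SS (log2 -2.18, adjusted p = 0.000149). Ccl12 had 0.377, 0.0992 and 0.867 CPM in MI cDC2s, against 0.393, 0.745, 2.74 and 0.843 CPM in SS cDC2s. These are 14 reads over the 3 MI libraries and 45 over the 4 SS libraries. In cDC1s only 4 reads fell on Ccl12 in MI and 3 in SS, at means of 0.0996 CPM in MI and 0.0731 CPM in SS, so that no difference was detectable at this depth.

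Ccl8, for which the known mouse receptor is CCR8, showed the largest called rise among the 9 genes in any cell type. Ccl8 had 165, 319, 269.6 and 245 CPM in MI macrophages, against 18.5, 68.1, 33.8 and 27.6 CPM in SS macrophages. The lowest MI library is above the highest SS library, and Ccl8 rose 6.76-fold (log2 fold change 2.76 ± 0.53 (SE), adjusted p = 0.00128). Against SS libraries 1 and 4 alone the rise was 10.7-fold (adjusted p = 0.000252). Over all alternatives run, the log2 fold change of Ccl8 in macrophages lay between 2.29 and 3.42. The call remained with each of the 8 macrophage libraries left out in turn. Ccl8 had 10.9, 20.4, 17.4 and 12.8 CPM in MI moDCs, against 18.0, 21.6, 19.0 and 17.4 CPM in SS moDCs. Those values overlap (log2 fold change -0.31 ± 0.52 (SE), adjusted p = 0.837). The moDC level was 16.2-fold below that of macrophages in MI (log2 -4.02, adjusted p = 1.42e-05), while in SS the difference did not pass (log2 -0.96, adjusted p = 0.254).

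In both conventional dendritic cell types Ccl8 was close to 0. Ccl8 had 0, 0.0992 and 1.16 CPM in MI cDC2s, against 0, 0.319, 3.83 and 0.187 CPM in SS cDC2s. Ccl8 had 0, 0.789, 0.65 and 0.205 CPM in MI cDC1s, against 0, 0, 0 and 0.487 CPM in SS cDC1s. The highest cDC2 value is that of library 3 in either state, and neither difference between MI and SS passed (adjusted p = 0.52 in cDC2s and 0.557 in cDC1s). Of the neighbours on chromosome 11, Ccl8 and Ccl12 were most alike over the libraries: Pearson's r of log2 CPM was 0.965 over all 31 and 0.76 for deviations from the group means. The TATAAA matches of this pair, shown above, stand 1 base apart relative to the start.

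Ccl3 encodes a ligand of CCR1. Ccl3 had 163, 139, 243 and 254 CPM in MI macrophages, against 115, 109.9, 70.4 and 90.1 CPM in SS macrophages. All MI libraries lie above all SS libraries, and Ccl3 rose 2.07-fold (log2 fold change 1.05 ± 0.24 (SE), adjusted p = 0.00442), a call lost against SS libraries 1 and 4 alone (1.93-fold, 0.0936). Ccl3 had 108, 94.1, 130.2 and 117 CPM in MI moDCs, against 140.3, 129, 94.4 and 83.1 CPM in SS moDCs. Ccl3 had 68.9, 68.9 and 87.6 CPM in MI cDC2s, against 93.3, 67.8, 58.9 and 70.1 CPM in SS cDC2s. Both pairs overlap, with log2 fold changes of 0.01 in moDCs (95% interval -0.47 to 0.49) and 0.05 in cDC2s (-0.47 to 0.57). Ccl3 had 4.83, 10.9, 6.31 and 9.73 CPM in MI cDC1s, against 16.2, 10.6, 8.83 and 7.02 CPM in SS cDC1s. These overlap as well (log2 fold change -0.44 ± 0.27 (SE), adjusted p = 0.375).

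In SS hearts Ccl3 did not differ by the test between moDCs and macrophages (log2 0.21, adjusted p = 0.642) or between cDC2s and macrophages (log2 -0.41, adjusted p = 0.185). In MI hearts it was lower in cDC2s than in macrophages (log2 -1.41, adjusted p = 0.000115) and in moDCs than in macrophages (log2 -0.83, adjusted p = 0.019). The moDC call was lost without MI macrophage library 3 (0.0696) or 4 (0.0824) or MI moDC library 2 (0.0709). cDC1s were 9.44-fold below cDC2s in MI (log2 -3.24, adjusted p = 7.38e-11) and 6.71-fold below them in SS (log2 -2.75, adjusted p = 5.39e-10).

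Ccl4, which encodes macrophage inflammatory protein 1 beta, was not called between MI and SS in any cell type. Ccl4 had 538, 563, 718 and 812 CPM in MI macrophages, against 527, 557, 291 and 333 CPM in SS macrophages. SS library 2 reaches into the MI range, and the difference did not pass (log2 fold change 0.62 ± 0.23 (SE), adjusted p = 0.103). Ccl4 had 365, 394, 399 and 438 CPM in MI moDCs, against 610.1, 628, 321 and 326 CPM in SS moDCs. Ccl4 had 309, 393 and 419 CPM in MI cDC2s, against 440.0, 364, 306 and 394 CPM in SS cDC2s. All 4 MI moDC values fall between the higher and the lower pair of SS moDC values, and the cDC2 groups overlap as well. Ccl4 had 189, 228, 171 and 265 CPM in MI cDC1s, against 209.8, 131, 108 and 162 CPM in SS cDC1s. None of these 3 differences passed (adjusted p = 0.661 in moDCs, 0.996 in cDC2s and 0.232 in cDC1s).

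Relative to macrophages, Ccl4 in cDC1s was 3.08-fold lower in MI and 2.79-fold lower in SS, the smallest gap between these cell types among the 9 genes. In MI, moDCs (log2 -0.72, adjusted p = 0.0408) and cDC2s (log2 -0.82, adjusted p = 0.0159) were below macrophages. The moDC call was lost without any 1 of 6 of the 8 libraries (MI macrophage 3 or 4, each MI moDC library; 0.0583 to 0.135) and with no filter on low counts (0.0594), and the cDC2 call without MI cDC2 library 1 (0.0835). The MI cDC1 level was below that of MI cDC2s (log2 -0.81, adjusted p = 0.0136), a call lost without MI cDC2 library 3 (0.0658) or MI cDC1 library 3 (0.0508). Ccl3 and Ccl4 varied together: r was 0.904 over the 31 libraries and 0.749 within groups. Within groups Ccl4 also followed the summed dissociation stress genes (r = 0.618), and Ccl9 ran against them (r = -0.612), over the same 31 libraries. Sums of other marker lists gave r of similar size. Among them were T and NK markers with Ccl4 (-0.688), shared dendritic markers with Ccl7 (-0.612) and fibroblast markers with Ccl8 (-0.602).

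Ccl6 and Ccl9, neighbouring genes whose products act on CCR1, had their highest means in SS cDC2s. Ccl6 had 631, 598 and 791 CPM in MI cDC2s, against 2385, 4109.9, 3447 and 2654 CPM in SS cDC2s. The groups are far apart, and Ccl6 fell 4.68-fold (log2 fold change -2.23 ± 0.26 (SE), adjusted p = 7.99e-07). Ccl6 had 91.7, 125, 109 and 114 CPM in MI cDC1s, against 203, 203, 202 and 209 CPM in SS cDC1s. The 4 SS libraries are nearly equal and all above the MI libraries, and Ccl6 fell 1.86-fold (log2 fold change -0.89 ± 0.23 (SE), adjusted p = 0.0117). Ccl6 had 950.3, 1788, 1005 and 1004 CPM in MI macrophages, against 793, 1448, 1085 and 965 CPM in SS macrophages. Ccl6 had 1291, 1268, 1129 and 1092 CPM in MI moDCs, against 1069, 1141, 2524 and 1779 CPM in SS moDCs. Both overlap and neither passed (log2 0.15, adjusted p = 0.798 in macrophages; log2 -0.45, adjusted p = 0.295 in moDCs). In SS, cDC2s were above macrophages 2.94-fold (log2 1.55, adjusted p = 3.72e-06) and above moDCs 1.93-fold (log2 0.95, adjusted p = 0.00397).

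In MI the place of cDC2s for Ccl6 was the opposite: they were below macrophages (log2 -0.82, adjusted p = 0.014) and below moDCs (log2 -0.83, adjusted p = 0.0284). The call against macrophages was lost without MI macrophage library 2 (0.0822) or MI cDC2 library 1 (0.0557) or 2 (0.0736). That against moDCs was lost without MI moDC library 1 (0.0664) or 2 (0.0631) or MI cDC2 library 1 (0.108) or 2 (0.152). The difference of the MI effects between cDC2s and macrophages given above stayed called with each library left out; it tests whether the gap between these cell types changed, not its sign in MI.

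Ccl9 had 608, 633 and 717 CPM in MI cDC2s, against 1513, 2636, 2239.5 and 1902 CPM in SS cDC2s. The groups do not overlap, and Ccl9 fell 3.18-fold (log2 fold change -1.67 ± 0.25 (SE), adjusted p = 2.77e-05). Ccl9 had 7.71, 5.42, 5.66 and 4.51 CPM in MI cDC1s, against 13.9, 18.9, 19.5 and 8.97 CPM in SS cDC1s. Again no value overlaps, and Ccl9 fell 2.62-fold (log2 fold change -1.39 ± 0.26 (SE), adjusted p = 0.000655). Ccl9 had 542, 854, 569 and 498 CPM in MI macrophages, against 454, 771, 646 and 509.7 CPM in SS macrophages. Ccl9 had 959, 979.6, 871 and 834 CPM in MI moDCs, against 783, 785, 1470.0 and 881 CPM in SS moDCs. These overlap, with log2 0.05, adjusted p = 0.948 in macrophages (95% interval -0.40 to 0.50) and log2 -0.10, adjusted p = 0.874 in moDCs (-0.55 to 0.34).

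Among cell types, Ccl9 set the conventional dendritic types apart: cDC1s were 112-fold below cDC2s in MI (log2 -6.81, adjusted p = 5.19e-17) and 136-fold below in SS (log2 -7.08, adjusted p = 1.47e-17). In SS, cDC2s exceeded macrophages 3.48-fold (log2 1.80, adjusted p = 2.4e-07) and moDCs 2.12-fold (log2 1.08, adjusted p = 0.000908). In MI, cDC2s and macrophages did not differ by the test (log2 0.08, adjusted p = 0.851). SS moDCs were above SS macrophages (log2 0.72, adjusted p = 0.0284), a call lost with no filter on low counts (0.0515) and without SS macrophage library 1 (0.105) or 4 (0.0978) or SS moDC library 3 (0.196). Over the 31 libraries r between Ccl6 and Ccl9 was 0.963, and 0.656 within groups. Their promoters, shown above, differ in the searched motifs.

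Ccl24, an eotaxin that acts on CCR3 and that macrophages make under interleukin 4, had lower means in MI than in SS in the 3 cell types with more than a few reads. Ccl24 had 47.1, 104, 63.4 and 56.8 CPM in MI macrophages, against 248, 292, 231 and 229.6 CPM in SS macrophages. The groups do not overlap, and Ccl24 fell 3.69-fold (log2 fold change -1.88 ± 0.40 (SE), adjusted p = 0.00329). Ccl24 had 6.5, 6.94 and 12.2 CPM in MI cDC2s, against 41.4, 106, 106 and 69.1 CPM in SS cDC2s. Here it fell 9.4-fold (log2 fold change -3.23 ± 0.50 (SE), adjusted p = 5.61e-05), the largest fall among the 9 genes. Ccl24 had 26.8, 40.3, 49.0 and 33.1 CPM in MI moDCs, against 58.1, 58.6, 124 and 91.0 CPM in SS moDCs. The groups do not overlap, but the difference did not pass (log2 fold change -1.15 ± 0.40 (SE), adjusted p = 0.101). Fitted on moDC libraries alone it did (0.0236). cDC1s had 11 reads over 4 libraries in MI and 18 over 4 in SS. The MI effect on Ccl24 was not shown to differ among cell types (F test, adjusted p = 0.124). Both SS moDCs (log2 -1.59, adjusted p = 0.00685) and SS cDC2s (log2 -1.63, adjusted p = 0.00193) were below SS macrophages, while SS cDC2s and SS moDCs stood at 80.6 ± 31.4 CPM and 82.9 ± 31.4 CPM (SD, n = 4 each).

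Macrophage marker genes were also called lower in MI in cDC2s and cDC1s. Within groups, over all 31 libraries, r between a chemokine and the summed macrophage markers lay between 0.0913 (Ccl3) and 0.439 (Ccl7). In cDC2s, 7 of 9 markers fell (beside 11.0% of all genes called in either direction), Fcgr1 rose 2.28-fold and Mertk did not pass. Their summed level was 4629.7 to 7967 CPM in MI cDC2s and 18642 to 31616 CPM in SS cDC2s, and the lysozyme gene Lyz2, which makes up most of it, fell 5.65-fold. Flt3, the receptor gene for the dendritic growth factor FLT3 ligand, rose 2.87-fold (log2 1.52, adjusted p = 0.000182). In cDC1s, 6 of 9 macrophage markers fell and 0 rose (beside 8.88% of all genes called), with sums of 771 to 1039 CPM in MI and 1622 to 2025 CPM in SS. Of 5 cDC2 markers 4 fell in the same cDC1 libraries, beside the same 8.88% of all genes: Cd209a (6.44-fold, adjusted p = 5.48e-05), Itgam, Irf4 and Clec10a. Their sum with Sirpa was 20.8 to 32.2 CPM in MI cDC1s and 52.7 to 69.4 CPM in SS cDC1s. No macrophage or cDC2 marker was at 0 in all libraries of any group. In macrophages (beside 7.39% of all genes) and moDCs (beside 4.84%) 0 of 9 macrophage markers were called, but dendritic markers differed there. In macrophages, where Ccl8 and Ccl3 rose and Ccl24 fell, Itgax rose 5.45-fold (log2 2.45, adjusted p = 9.52e-08) and Flt3 3.81-fold (log2 1.93, adjusted p = 0.00924). The 3 shared dendritic markers, Itgax, Flt3 and Zbtb46, summed to 28.8 to 67.9 CPM in MI macrophages and 6.57 to 16.9 CPM in SS macrophages. Of the 5 cDC2 markers Itgam rose and Cd209a and Irf4 fell, with sums of 2308 to 2746 CPM in MI macrophages and 1582 to 1941 CPM in SS macrophages, and of the 7 cDC1 markers Wdfy4 rose and Batf3 fell. In moDCs Flt3 rose 2.11-fold (log2 1.07, adjusted p = 0.0117), with shared dendritic sums of 452 to 624 CPM in MI and 226 to 442 CPM in SS, and the cDC1 markers Clec9a and Batf3 fell. Of the 9 chemokines, Ccl3 and Ccl4 were not called downward in cDC2s, nor were Ccl8 and Ccl12, which were close to 0 there. In cDC1s only Ccl6 and Ccl9 among the 9 chemokines were called downward, and Ccl7 was called upward. The part of the marker changes in the chemokine results was not tested.

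**Figure D4:**
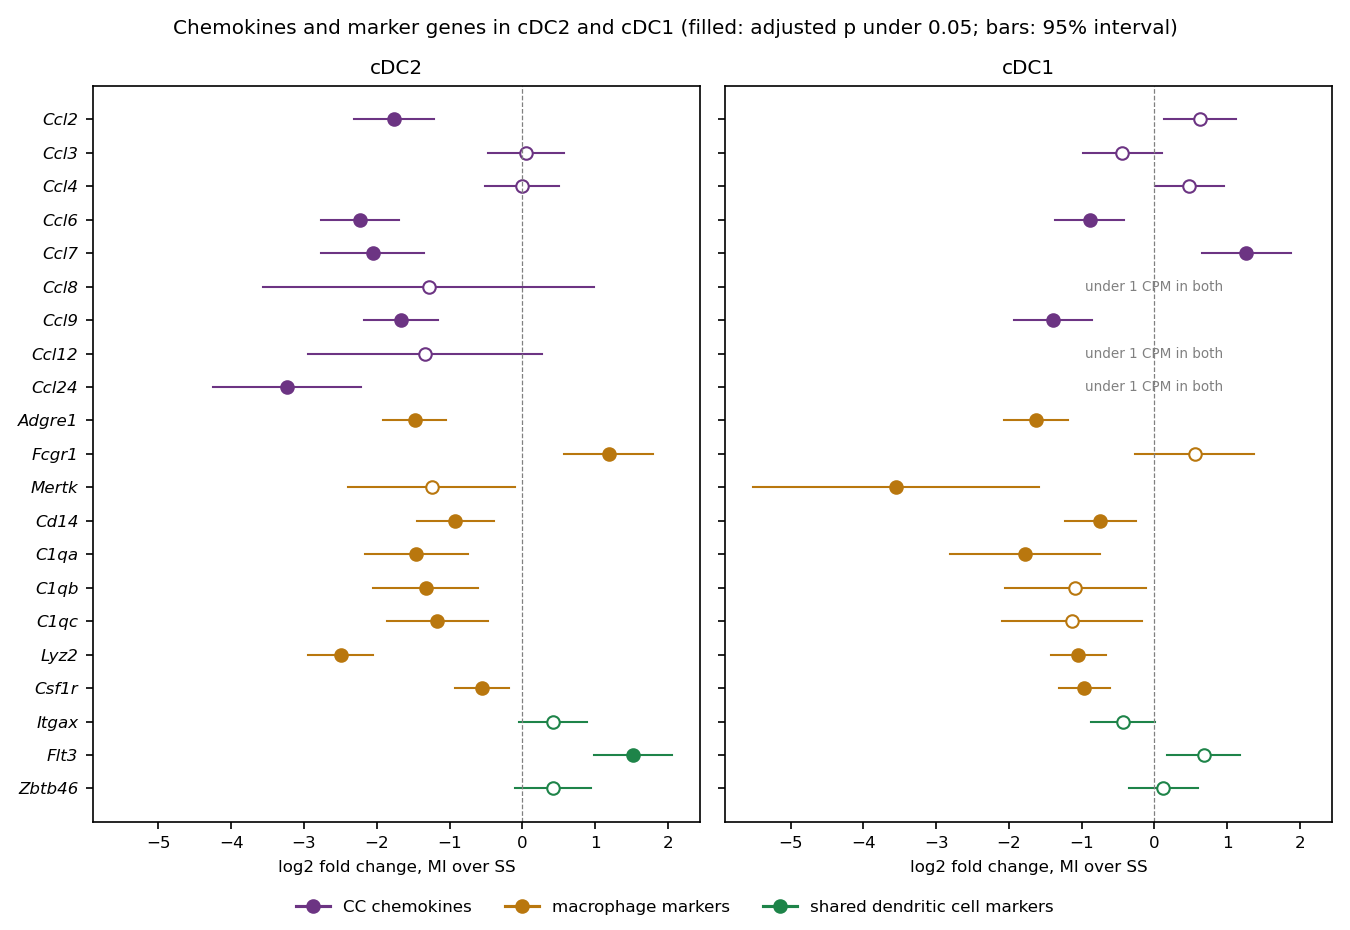
Log2 fold change of MI over SS with 95% intervals (horizontal axis) for the 9 chemokines, 9 macrophage markers and 3 shared dendritic cell markers in cDC2s (left) and cDC1s (right). Filled points have an adjusted p under 0.05; in cDC2s 5 chemokines and 7 macrophage markers lie below 0, and Flt3 and Fcgr1 above.

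Summed markers of other cell types reached up to 362 CPM in a library, and several differed between MI and SS. Summed neutrophil markers (7 genes) came to 0.565 to 9.15 CPM in MI cDC2s and 40.6 to 121 CPM in SS cDC2s, with S100a9, Camp and Ngp at 0 in all MI cDC2 libraries. In cDC1s they were at 0 in all MI libraries and at 0.541 to 3.6 CPM in SS. Mural cell markers (8 genes) came to 1.95 to 5.57 CPM in MI cDC1s and 99.0 to 344 CPM in SS cDC1s, and endothelial markers (8 genes) to 5.62 to 9.77 CPM in MI and 38.9 to 202 CPM in SS. Tie1, Emcn, Tek, Myh11 and Cspg4 were at 0 in all MI cDC1 libraries. In moDCs these sums were lower in MI too: 13.5 to 24.2 CPM in MI and 72.4 to 283 CPM in SS for neutrophils, 19.3 to 31.6 CPM in MI and 44.0 to 362 CPM in SS for mural cells, and 52.3 to 75.6 CPM in MI and 91.9 to 331 CPM in SS for endothelium. The highest mural and endothelial sums were those of SS moDC library 2. Of the SS moDC libraries it also had the most Ccl2, Ccl4, Ccl7, Ccl8 and Ccl12, but not the most Ccl3, Ccl6, Ccl9 or Ccl24. In macrophages, where Ccl8 and Ccl3 rose, the neutrophil sum was 15.2 to 51.6 CPM in MI and 32.5 to 118 CPM in SS, and the cardiomyocyte sum (8 genes) 49.5 to 110.1 CPM in MI and 129 to 169.6 CPM in SS. Fibroblast, T and NK, B, and mast cell or basophil markers summed to at most 97.9 CPM in any library. Their part in the results was not tested.

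Among receptor genes for these ligands, Ccr8, the receptor of mouse CCL8, was too low to be tested. Ccr2, the receptor gene for CCL2, CCL7 and CCL12, rose in 3 of the 4 cell types. Ccr2 had 2361, 2168, 2193 and 1776 CPM in MI macrophages, against 332, 423, 445 and 481 CPM in SS macrophages, a 5.06-fold rise (log2 2.34, adjusted p = 2e-13) with no overlap. It rose 1.83-fold in moDCs (log2 0.88, adjusted p = 4.23e-05) and 1.49-fold in cDC1s (log2 0.58, adjusted p = 0.00339), and did not pass in cDC2s (log2 0.23, adjusted p = 0.335). While Ccr2 rose in MI macrophages, its ligand genes Ccl2, Ccl7 and Ccl12 were not called there. Ccr1 and Ccr3 were not called in any cell type. Of 4 atypical receptor genes only Ccrl2, which binds chemerin and is not known to signal, was tested, and it rose 1.8-fold in macrophages (log2 0.85, adjusted p = 0.000549).

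Of 11 other CC ligand genes, 3 were tested: Ccl5, Ccl17 and Ccl22. None was called between MI and SS in macrophages (beside 7.39% of all genes), moDCs (beside 4.84%) or cDC2s (beside 11.0%). In cDC1s 2 of 3 fell (beside 8.88%). Ccl17, which attracts CCR4-bearing T cells, had 20.2, 8.28, 3.99 and 5.94 CPM in MI cDC1s, against 39.6, 64.7, 39.3 and 21.6 CPM in SS cDC1s. It fell 4.31-fold (log2 -2.11, adjusted p = 0.00541) with no overlap. Ccl5, which attracts T cells, had 27.7, 7, 6.03 and 3.99 CPM in MI cDC1s, against 39.4, 96.0, 108 and 21.8 CPM in SS cDC1s. It fell 5.93-fold (log2 -2.57, adjusted p = 0.00272), although 1 MI library reaches into the SS range.

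Of 18 genes that encode inducers or regulators of chemokine transcription, 2 were called in macrophages (1 up, 1 down, beside 7.39% of all genes), 2 in moDCs (0 up, 2 down, beside 4.84%), 6 in cDC2s (4 up, 2 down, beside 11.0%) and 9 in cDC1s (3 up, 6 down, beside 8.88%). Il1a, an interleukin 1 gene, fell in all 4: 2.87-fold in macrophages, 4.01-fold in moDCs, 4.95-fold in cDC2s and 2.72-fold in cDC1s. Il6 fell in moDCs (log2 -1.72, adjusted p = 0.0363), cDC2s (log2 -3.25, adjusted p = 0.000172) and cDC1s (log2 -2.16, adjusted p = 0.008). Il4ra, which encodes the interleukin 4 receptor chain, rose in macrophages (log2 0.78, adjusted p = 0.000703), cDC2s (log2 0.83, adjusted p = 0.000415) and cDC1s (log2 0.56, adjusted p = 0.0127), while Ccl24 fell in macrophages and cDC2s. In cDC2s Nfkb1, Tnfaip3 and Zfp36l1, genes of NF-kB signalling and of messenger RNA decay, also rose (1.54-fold to 1.57-fold). In cDC1s Il1b and Myd88 rose, and Tnf (4.97-fold), Nfkbia (2.7-fold), Tnfaip3 and Rela fell.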

How the data were processed

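RNA-seq of 31 libraries was analysed, made per the labels' protocols from 4 ng of RNA with SMART-Seq v4 and read as single 75-base reads on a NextSeq500. The deposited values are raw counts of reads per gene, as the authors made them. Tools named in the submitters' processing notes are TopHat2 2.1.0, SAMtools 0.1.18, Trimmomatic 0.35 and FastQC 0.11.4, and the build named is mm10. No source used here names the counting tool, its annotation or its strand setting. Each file also holds 5 entries that name no gene; they were left out of library sizes and tests, and their no-feature share was 6.42% to 16.9% of reads.

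The members and gene lists were chosen with earlier results of these data known. All 9 members are named with their values in every group. Other genes are named from the fixed lists of receptors, ligands, inducers and markers where they were called; not every called gene is reported here.

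Counts were fitted with edgeR 4.0.16 (limma 3.58.1, R 4.3.3): filterByExpr with a minimum count of 10, TMM scaling, 8 group means over 31 libraries, robust quasi-likelihood tests, and Benjamini-Hochberg adjustment over 13039 genes with a threshold of 0.05. The common dispersion was 0.116. The procedure was tested on simulated data. Replicates differed by more than sampling noise in every pair. CPM per kilobase used the exon lengths of GENCODE M21. Motifs and alignments used Python and Biopython 1.88. Alternatives were DESeq2 1.42.0, 2 other scalings, no filter, the replicate block, only the compared cell type, SS libraries 1 and 4 or 2 and 3 alone, and each library left out.

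GEO's labels share replicate numbers between groups. Deviations of same-numbered libraries correlated above 0.1 in every pair between SS cDC2s and SS macrophages (0.109 to 0.16) and between SS moDCs and SS macrophages (0.119 to 0.203), and not in every pair elsewhere. In these comparisons with SS macrophages the block on the replicate number changed no call of the 9 genes. Between MI moDCs and MI macrophages the correlations were 0.0516 to 0.104, and the same number was the best match in 4 of 4 pairs. Between cDC1s and cDC2s it was the best match in 3 of 3 pairs in MI and 4 of 4 in SS.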

Additional observations from a re-analysis of the deposited data

Results flagged for a closer look

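In 8 of 63 groups of 4 libraries, 1 library stood apart from the other 3 by a gap that is large for the range of the group. Chance marks about 5% of such groups where values are normally distributed, which was not shown for these CPM. A group with reads in only 1 library is always marked, so the number of marked groups cannot be weighed against that rate. Ccl6 was at 1788 CPM in MI macrophage library 2, against 950.3 to 1005 CPM in the others. Ccl7 was at 87.9 CPM in MI macrophage library 1, against 154.5 to 156.8 CPM in the others. Ccl7 was also at 21.4 CPM in SS cDC2 library 2, against 11.1 to 12.7 CPM in the others. Ccl9 reached 1470.0 CPM in SS moDC library 3, against 782.6 to 880.7 CPM in the others.

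The other 4 concern levels near 0. Ccl8 was at 3.83 CPM in SS cDC2 library 3 and at most 0.319 CPM in the other SS cDC2 libraries. In SS cDC1 library 4 Ccl8 was at 0.487 CPM and Ccl12 at 0.292 CPM, and the other 3 SS cDC1 libraries held no read of either gene. Ccl24 was at 1.13 CPM in MI cDC1 library 1, and the other 3 MI cDC1 libraries held none.

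Between cell types, 6 differences of MI effects passed edgeR's quasi-likelihood test with Benjamini-Hochberg adjustment. Set against macrophages, the log2 effect in cDC2s was lower by -1.75 for Ccl2 (adjusted p = 0.00194), -2.37 for Ccl6 (4.37e-05), -2.59 for Ccl7 (0.000253) and -1.72 for Ccl9 (0.00145). In cDC1s it was lower by -1.49 for Ccl3 (0.0115) and -1.44 for Ccl9 (0.0121).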

How the results depend on the processing

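The counts of called chemokines in macrophages (3), cDC2s (5) and cDC1s (3, 4 with the replicate block) between MI and SS moved by less than 1.5 times under every alternative run. In moDCs, where 1 was called, 2 were with upper-quartile scaling, DESeq2, the replicate block or moDC libraries fitted alone, 0 with no filter on low counts or against SS libraries 1 and 4 alone, and 0 to 1 with each library left out. The MI effects that differed from macrophages numbered 6, and 11 with the replicate block, which added Ccl7 (adjusted p = 0.013) and Ccl8 (0.0371) in moDCs, Ccl3 (0.0355) and Ccl8 (0.0444) in cDC2s and Ccl6 (0.0431) in cDC1s by edgeR. With each library left out they numbered 6 to 10, the 10 without SS macrophage library 2. Over all genes, leaving out 1 library gave 407 to 741 calls in moDCs (631 with all) and 882 to 1550 in cDC2s (1440 with all). The causes were not tested. No called value changed sign.

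Same-numbered MI and SS libraries did not deviate together (correlations -0.0472 to 0.0655), so that the replicate block there adjusts for a number only. With it, Ccl7 in moDCs (adjusted p = 0.0317 by edgeR) and Ccl2 in cDC1s (0.048) passed, and no call of the 9 genes was lost. The block gave 45 calls between SS cell types (43 without), 46 between MI cell types (44 without) and 7 in the test across 4 cell types (6 without).

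Depth limits Ccl8, Ccl12 and Ccl24 in cDC1s and Ccl8 and Ccl12 in cDC2s: 3 reads over a group are 0.0743 CPM in MI cDC1s and 0.0631 CPM in SS cDC1s, and folds of these genes moved by more than 1.5 times when single libraries were left out. Such limits cover counting error only.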

Other observations

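Among 9057 genes with at least 10 CPM, those whose log2 CPM followed each chemokine most closely over the 31 libraries were the following, given as a description since libraries of a group share their cell type and state. Ccl2 ran closest to Crym (r = 0.94), Ccl3 to Tlr8 (0.97), a receptor for single-stranded RNA, and Ccl4 to Dok3 (0.892), an adaptor of immune receptor signalling. Ccl6 ran closest to the lysozyme gene Lyz1 (0.969), Ccl7 to Itm2b (0.923), Ccl8 to Gna12 (0.942), a G protein subunit gene, and Ccl9 to the paired receptor gene Pilra (0.989). Ccl12 ran closest to Maf (0.968), a transcription factor gene of resident macrophages, and Ccl24 to Lilra5 (0.973), a leukocyte immunoglobulin-like receptor gene.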
